A study of Homo sapiens with 8 samples.

Results

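YTHDF2 binding sites were listed by the authors as single nucleotides in an order that repeats the chromosomes. Of the 37613 distinct positions, 3370 (8.96%) stood only in the shorter of the 2 stretches this order gives. A new run of rows was taken to start where the strand changed or the chromosome order started again, which gave 4 runs on each strand. The first 2 runs of each strand made up the shorter part, with 8935 rows, and the later runs the longer part, with 34243 rows. A position belonged to the set described here when its chromosome, coordinate and strand occurred in the shorter part and nowhere in the longer part, so the set was chosen by the authors' own calls and by no other value. These shorter-only positions were 37.7% of the shorter part. They are set beside 5565 positions that stood in both parts (shared) and 28678 that stood in the longer part alone (longer-only). The list does not say which libraries or which treatment either part stands for, and none is assigned here.

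The libraries behind the list came from polyA RNA of wild-type HEK293T cells, a long-used line derived from human embryonic kidney, by iCLIP2, a protocol in which ultraviolet light fixes protein to RNA, an antibody recovers the protein and reverse transcription stops at the fixed base. Of 8 libraries, 4 were made from cells kept for 12 h in medium with STM2457, an inhibitor of the methyltransferase METTL3, at 20 µM, and 4 from cells kept equally long without it. Medium of both groups held 0.2% of the solvent DMSO. The stated aim was to learn where YTHDF2 binding depends on m6A. The list carries 1 score per row and no value per library, so read depth and replicate spread are unknown, STM2457 was not compared with DMSO, and no difference between kinds of position was tested. Shares are given with exact (Clopper-Pearson) binomial 95% intervals, which cover counting error only and treat positions as independent.

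YTHDF2 is a cytoplasmic reader of N6-methyladenosine (m6A). Its YTH domain holds the methylated adenosine, and the protein recruits the CCR4-NOT deadenylase, so that many of the mRNAs it binds are shortened and degraded. METTL3 and METTL14 place the mark mainly in the sequence context DRACH, in which D is A, G or T in DNA letters, R is A or G, the A before the C is methylated and H is A, C or T. In mammalian mRNA the mark is densest in long internal exons and near stop codons.

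Where genomic sequence was at hand, the listed nucleotide was itself the A of such a context. RefSeq windows of 300 nt around gene starts (250 nt before to 50 nt after) covered 29 shorter-only positions with at least 2 nt on either side. All 29 were an A followed by C, with A or G before the A and A, G or T before that. The same held for all 12 shared and all 121 longer-only positions in such windows. On the strand of the gene, the A of this DRAC context made up 1.83% of all letters in the 35116 windows and 8.65% of all A letters. How the authors placed the listed nucleotide within a site is not stated, so it need not be the base at which reverse transcription stopped. A following letter of A, C or T, which completes DRACH, was present at 23 of 29 shorter-only positions (79.3%, interval 60.3 to 92.0), 10 of 12 shared ones (83.3%, 51.6 to 97.9) and 99 of 121 longer-only ones (81.8%, 73.8 to 88.2). Among all DRAC contexts of the windows 83.8% had such a letter, so the 3 kinds of position were not distinguishable by it at this number. The G-rich form GGAC was found at 8 of 29 shorter-only positions (27.6%, 12.7 to 47.2), 5 of 12 shared ones and 44 of 121 longer-only ones (36.4%, 27.8 to 45.6). These windows lie mostly near gene starts and covered few of the 3370 positions, so the context of the others was not read here.

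Windows of 21 nt around 8 shorter-only positions close to a gene start are shown because positions there were more often shorter-only than elsewhere. They were chosen after their values were seen. Both members of a close pair in FAT1, the gene with the most shorter-only positions, and 1 position in the ribosomal protein gene RPL32 follow. The FAT1 pair was read from the start window of another RefSeq gene model that lies within FAT1. Sequences are from RefSeq on GRCh38.p14, 5′ to 3′ on the strand of the gene, and capitals mark the DRAC context, whose A before the C is the listed position.
ATP5MC1 (chr17:48892810-48892830, plus strand): gagcgctgAGACcaagggcta
EMC4 (chr15:34225022-34225042, plus strand): gcagagtgAGACaaagcggag
SF3A2 (chr19:2236838-2236858, plus strand): cgttcgccAAACgaagtcgtg
HAND1 (chr5:154478206-154478226, minus strand): gaagggttAAACaggtctttg
NKRF (chrX:119606401-119606421, minus strand): acaaccccGGACggcacgcgg
SDHD (chr11:112086893-112086913, plus strand): gccctcagGAACgagatggcg
OST4 (chr2:27071639-27071659, minus strand): caggtctcTGACttcgggctt
ATP5MJ (chr14:103921518-103921538, minus strand): gcgctcggTGACctttccgag
FAT1, upstream (chr4:186628191-186628211, minus strand): acggctctGGACaaggacaaa
FAT1, downstream (chr4:186628185-186628205, minus strand): ctggacaaGGACaaagggaaa
RPL32 (chr3:12840439-12840459, minus strand): gtgaccctTGACctcctggga
In the FAT1 pair both positions are the A of GGAC, and the contexts are 6 nt apart. Contexts of this form on 1 strand cannot have their A letters 1 to 3 nt apart, and over all 37613 positions the smallest distance between neighbours on a strand was 4 nt, a distance that 310 positions had. The position in SDHD, which encodes a membrane subunit of succinate dehydrogenase, is followed by G and is thus outside DRACH, as are those in SF3A2, a splicing factor subunit, and NKRF.

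Positions close to the start of a gene were more often shorter-only than positions farther in. Of 3318 shorter-only positions that could be assigned to 1 protein-coding gene, 105 (3.16%, interval 2.60 to 3.82) lay in the first 250 nt of that gene. The share was 1.05% of shared positions (0.794 to 1.36, 57 of 5441) and 0.977% of longer-only positions (0.865 to 1.10, 274 of 28049). The interval of the shorter-only share did not overlap either of the others. The window of 250 nt was chosen after seeing the data, and the difference was not tested. The 105 positions lay in 104 genes, so hardly any gene counted more than once. Gene starts here are the outermost ones of RefSeq, and introns were not removed.

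The share was graded with distance from the gene start. Shorter-only positions made up 27.9% (17.7 to 40.1) of the 68 positions in the first 50 nt, 31.5% (21.1 to 43.4) of the 73 positions at 50 to 100 nt and 21.4% (16.8 to 26.5) of the 295 positions at 100 to 250 nt. At 250 to 500 nt they made up 16.1% (13.0 to 19.6), and from 500 to 1000 nt 9.72% (7.98 to 11.7), close to the 9.01% over all assigned positions. Within the shorter part alone, they were 86.4% of positions in the first 50 nt and 76.7% at 50 to 100 nt, against 37.9% of all assigned positions of that part. Toward the gene end the share was lower, at 8.04% (6.46 to 9.87) at 100 to 250 nt, 7.09% (5.97 to 8.35) at 250 to 500 nt and 7.02% (6.15 to 7.98) at 500 to 1000 nt before it, against 10.2% (9.73 to 10.7) at 5000 nt or more.

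**Figure D1:**
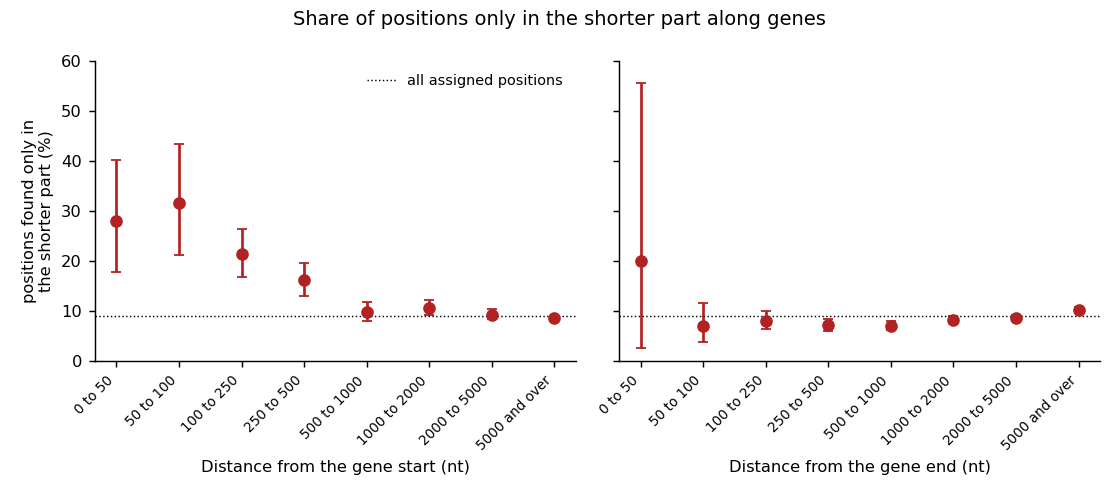
Share of assigned YTHDF2 positions that were found only in the shorter part of the list (vertical axis, percent), by distance in nt from the gene start (left) and from the gene end (right). Points are shares with exact binomial 95% intervals and the dotted line is the 9.01% over all assigned positions. The 4 bins up to 500 nt from the start lie above the line, from 16.1% to 31.5%, whereas those from 250 to 1000 nt before the gene end lie below it, at 7.09% and 7.02%. The terminal bin rests on 10 positions and has a wide interval.

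The higher 5′ share was also present within genes that held both kinds of position. In the 2255 genes with a shorter-only and a longer-part position, 2.86% of shorter-only positions (2.30 to 3.51) lay in the first 250 nt, against 0.597% of shared (0.334 to 0.982) and 0.835% of longer-only positions (0.680 to 1.01). In genes spanning 10 kb or more the shares were 2.41%, 0.733% and 0.857%, in the same order. It was also seen in both runs of the shorter part, at 3.12% in the first run (81 positions) and 3.31% in the second (24 positions). With positions scored below 3.93, the median of the shorter-only positions, left out, the share was 3.12%, against 1.03% of shared and 0.895% of longer-only positions.

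Among the high scores at these 105 positions, chosen after their values were seen, were those at RPS21, a protein of the small ribosomal subunit (score 34.4, 243 nt from the gene start), CAAP1 (20.6, 166 nt), the histone gene H2BC17 (20.2, 228 nt), NDUFB2, a subunit of respiratory complex I (19.1, 109 nt) and NHP2, a protein of box H/ACA ribonucleoproteins (16.6, 162 nt). ATP5MC1, a membrane subunit of ATP synthase whose sequence is shown above, had 12.7 at 33 nt. The median score of the 105 was 3.90, beside 3.95 over all assigned shorter-only positions, so they were not set apart by score.

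The last 1 kb of genes held a smaller share of shorter-only than of other positions. In genes spanning 10 kb or more, 285 of 2737 shorter-only positions (10.4%, 9.29 to 11.6) lay in the last 1 kb, against 12.6% of shared (11.6 to 13.6) and 13.4% of longer-only positions (13.0 to 13.8). In the first 1 kb the shares were 5.52% of shorter-only (4.69 to 6.44), 3.64% of shared (3.11 to 4.24) and 2.93% of longer-only positions (2.72 to 3.15). The ratio of last to first was therefore 1.89 for shorter-only, 3.46 for shared and 4.57 for longer-only positions. Over genes of any span the last 1 kb held 13.5% of shorter-only (12.4 to 14.7), 17.5% of shared (16.5 to 18.5) and 17.1% of longer-only positions (16.6 to 17.5). Within the 2255 genes that held both kinds, again of any span, it held 12.7%, 12.7% and 12.8%, in the same order, and the intervals overlapped. In the first 1 kb of those genes the shares were 8.21% of shorter-only (7.27 to 9.24), 5.69% of shared (4.81 to 6.67) and 4.09% of longer-only positions (3.74 to 4.46).

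Ribosomal protein genes held more shorter-only positions, relative to all their YTHDF2 positions, than any other list examined that had 30 or more positions. Of 129 positions in these genes, 41 were shorter-only (31.8%, 23.9 to 40.6), 29 were shared and 59 longer-only. The background over all assigned positions was 9.01%. Within the shorter part, 58.6% of ribosomal positions (46.2 to 70.2) were shorter-only, against 37.9% over all genes, 49.3% in all genes with a single position and 47.9% in those with 2. The last 2 values lie within the interval of the ribosomal share. The 41 positions were spread over 33 of the 65 bound genes, and in 16 of these 33 no position of the longer part was found. Over all genes 2465 of 7628 bound genes (32.3%) had a shorter-only position, and 210 of the 2465 had no position of the longer part. The 41 ribosomal positions had a median score of 8.84, compared with 3.95 for all assigned shorter-only positions. The list was drawn by symbol pattern and includes 7 ribosomal-like symbols, without which the share was 32.8%.

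Single ribosomal genes show the range. RPS15A, of the small subunit, had a shorter-only position scored 90.1 at 18788067 on chromosome 16, and its 1 longer-part position lay 4637 nt away. RPS3, which lines the mRNA entry channel of the small subunit, had only 1 position, shorter-only and scored 82.3, at 75404092 on chromosome 11. RPL27 had shorter-only positions scored 53.7 and 2.02, and RPS21 had 2 scored 34.4 and 21.3, each beside 1 longer-only position. RPL8 had 2 scored 31.8 and 8.74 beside 1 shared and 2 longer-only positions. RPS27A, which encodes a ubiquitin fused to a ribosomal protein, had 2 scored 14.0 and 7.33, and RPL6 had 2 scored 9.33 and 3.59, neither gene with any longer-part position. The position in RPL32 shown above was scored 1.95. Scores in the genes named here thus ran from below the median of the whole set to among its highest. Ribosomal protein genes have many near-identical processed copies in the genome, and the rule by which reads were placed among such copies is unknown, so values in these genes are uncertain.

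These genes also had few positions and short spans, a median span of 5.06 kb and 1.98 positions per bound gene. Shorter-only positions made up 11.0% of positions in genes with a single position, 11.1% in genes with 2 and 7.53% in genes with 20 or more. They made up 9.88% in genes spanning over 3000 and up to 5000 nt and 9.59% in genes spanning over 5000 and up to 10000 nt. The part of position number, span and expression in the ribosomal share was not tested.

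**Figure D2:**
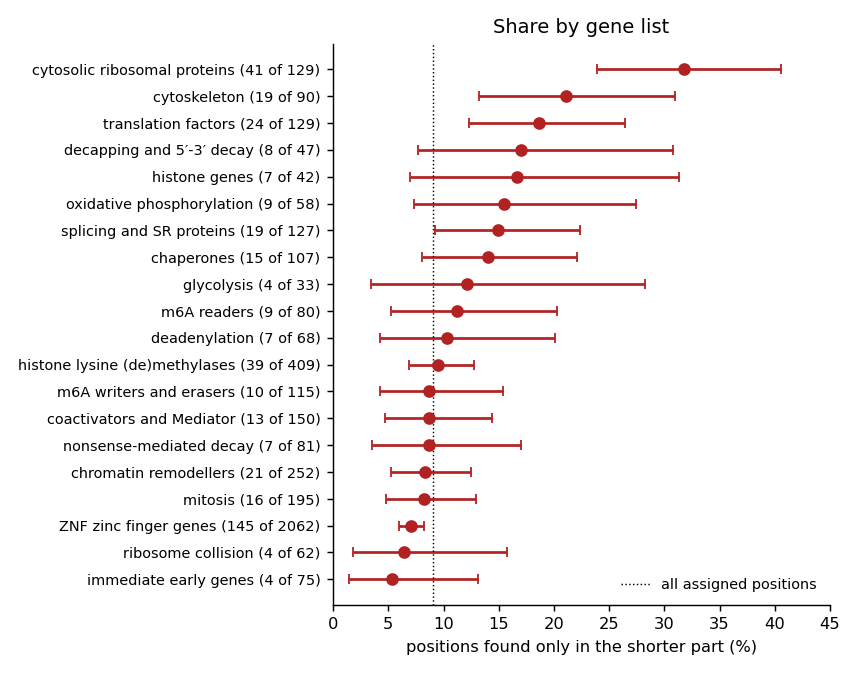
Share of YTHDF2 positions found only in the shorter part (horizontal axis, percent) in each gene list with 30 or more positions; the label gives their number and the number of all positions of the list. Points are shares with exact binomial 95% intervals, and the dotted line marks 9.01%, the share over all assigned positions. Ribosomal protein genes are at 31.8%, cytoskeletal genes at 21.1% and translation factors at 18.6%, whereas most chromatin and RNA decay lists lie near the line.

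Genes of the translation and cytoskeletal machinery followed. Among translation initiation and elongation factors, 24 of 129 positions were shorter-only (18.6%, 12.3 to 26.4). They were 63.2% of the list's positions in the shorter part (46.0 to 78.2), against 37.9% over all genes. Of 30 bound genes 19 had 1 or more, beside 32.3% of all bound genes. EEF2, the elongation factor that moves the ribosome along the mRNA, had 1 scored 229, which lay 234 nt before the gene end at 3976290 on chromosome 19, beside 1 shared and 7 longer-only positions. EIF4G1, the scaffold of the cap-binding complex, had 3 of 18 positions, EIF2S2 2 of 3, and EIF3D, the cap-contacting subunit of eIF3, had 2 (scores 5.74 and 0.705) and no other position. Among cytoskeletal genes 19 of 90 positions were shorter-only (21.1%, 13.2 to 31.0) in 12 of 19 genes, again beside 32.3% of all bound genes. The tubulin TUBB had 3 within 147 nt, scored 25.0, 185 and 9.50, beside 3 shared and 3 longer-only positions, and TUBB6 had the same numbers with scores up to 13.0. Within the shorter part the cytoskeletal share was 36.5%, no higher than the 37.9% of all genes, since 33 of their positions were shared. Tubulins have close copies, so their scores carry the same uncertainty.

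Splicing and SR protein genes (19 of 127, 15.0%, 9.25 to 22.4) and ZNF zinc finger genes (145 of 2062, 7.03%, 5.97 to 8.22) had intervals above and below 9.01%. Within the shorter part, 57.6% of splicing positions (39.2 to 74.5) were shorter-only, against 37.9% over all genes. For ZNF genes this share was 37.7% (32.8 to 42.7), close to that of all genes, and 1677 of their 2062 positions were longer-only. SRRM2, a nuclear speckle scaffold, had 5 shorter-only positions among 29, with scores of 3.60, 6.37, 24.0, 0.661 and 5.72 in 5′ to 3′ order, and SON had 4 among 41. In the ZNF list ZNF142 led with 5 among 18, then ZNF460 with 4 among 13 and ZNF629 with 4 among 25.

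For the other lists the interval included 9.01%, which does not show that they behave like all genes. Genes for the m6A machinery were among them. Writers and erasers had 10 shorter-only positions of 115 (8.70%), with 3 in ZC3H13 and 2 each in RBM15 and VIRMA, which are writer complex subunits. Readers had 9 of 80 (11.2%), with 4 in PRRC2A and 2 each in HNRNPA2B1 and IGF2BP1. In mRNA decay, deadenylation genes had 7 of 68 (10.3%), led by the CCR4-NOT subunits CNOT6 and CNOT1 with 2 each. Decapping genes had 8 of 47 (17.0%, 7.65 to 30.8), led by EDC3 and the helicase DDX6 with 2 each. Nonsense-mediated decay genes had 7 of 81 (8.64%), with 2 in the helicase UPF1, and ribosome collision genes 4 of 62 (6.45%), with 2 in GCN1. Histone lysine methyltransferase and demethylase genes had 39 of 409 (9.54%), chromatin remodellers 21 of 252 (8.33%), led by ARID1A with 5 and BPTF with 4, and coactivator and Mediator genes 13 of 150 (8.67%), led by MED13L and MED1 with 3 each.

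Chaperones had 15 of 107 (14.0%), with 3 in HSPA9, the mitochondrial HSP70, and 2 in TCP1, which had no other position. Oxidative phosphorylation genes had 9 of 58 (15.5%), with 2 each in UQCR11 and SDHD, and glycolytic genes 4 of 33 (12.1%), with 2 in HK1. Histone genes, drawn by symbol pattern and including the replication-independent H1-10, had 7 of 42 (16.7%), mitotic genes 16 of 195 (8.21%) and immediate early genes 4 of 75 (5.33%), of which 3 were in ZFP36L2. Kidney epithelial markers had 0 of 18, for which the exact interval reached 18.5% and a limit of 3 counts allows a share of up to 16.7%, haematopoietic markers had no position at all, and neuronal markers had 3 of 13, with 2 in the neurofilament gene NEFM.

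In all, 2465 of 7628 genes with a position had at least 1 that was shorter-only, and 1830 of these had exactly 1. FAT1, an atypical cadherin, had the most, 7 of its 62 positions. From 5′ to 3′ their scores were 1.21, 0.117, 1.40, 2.42, 0.698, 1.05 and 1.28, all below the median of the set. Those scored 1.40, 2.42 and 0.698 lay 98.1 to 98.5 kb from the gene start, 6634 to 7062 nt away from the nearest longer-part position, and include the pair whose sequences are shown above. MKI67, the proliferation marker Ki-67, had 6 of 54, with scores from 1.42 to 43.7, and 4 of the 6 lay 10 to 30 nt from a longer-part position. The histone methyltransferase KMT2D had 6 of 46 (scores 0.613 to 14.0) and its paralogue KMT2C 6 of 41 (0.153 to 19.4). SPEN, a transcriptional repressor, had 5 of 44, among them 1 scored 53.7 that lay 5 nt from a longer-part position. The others with 5 were UBE2O, PLEC, IGF1R, WDR4, SPTBN1 and ARID1A, besides SRRM2 and ZNF142 above. As shares, FAT1 had 11.3%, MKI67 11.1%, SPEN 11.4%, KMT2D 13.0% and KMT2C 14.6%, not far from the 9.01% over all assigned positions. Their high counts thus came with many positions of every kind. Shorter-only positions were most of those of WDR4, a tRNA methyltransferase subunit, at 5 of 9, and fewer in the ubiquitin-conjugating enzyme UBE2O at 5 of 16. At the other extreme TASOR2 had 45 positions, LMTK2 and ZNF318 29 each and KNL1 26, with no shorter-only position among them.

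**Figure D3:**
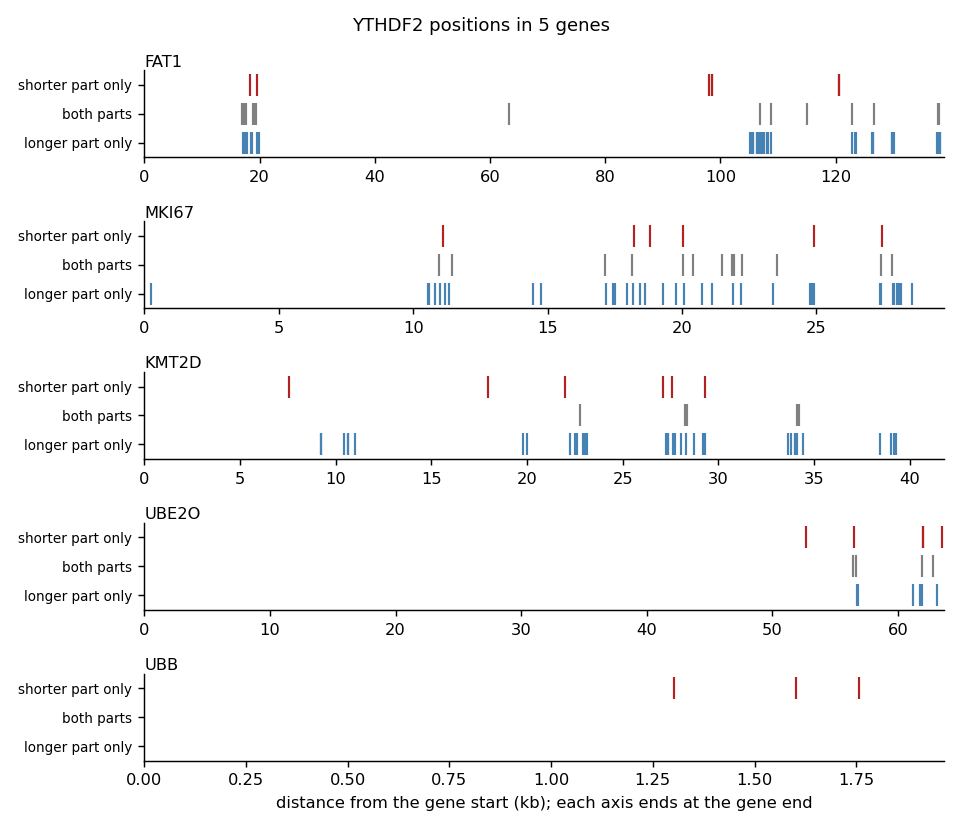
YTHDF2 positions in 5 genes, as ticks by distance from the gene start in kb, with positions only in the shorter part in the top row of each panel, those in both parts in the middle row and those only in the longer part in the bottom row. FAT1 shows 3 shorter-only positions 98.1 to 98.5 kb from its start with no longer-part position near them, MKI67 and KMT2D show them among the others, and UBB has 3 shorter-only positions and no others.

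In 210 of the 7628 genes with a position, all assigned positions were shorter-only, 238 positions in all. Of these genes 185 had 1, 22 had 2 and 3 had 3. The 185 were 11.0% of the 1685 genes with a single position, near the 9.01% over all assigned positions. The polyubiquitin gene UBB had 3, scored 61.5, 14.9 and 19.8 from 5′ to 3′, and the nearest longer-part position was 56137 nt from them. PSMD14, the deubiquitinase of the proteasome lid, had 3 scored 4.11, 6.86 and 2.07, and the folate enzyme MTHFD1 had 3 scored 6.39, 7.27 and 0.233, the first of them 62 nt from the gene start. Those with 2 included the arginine methyltransferase PRMT3 (32.8 and 2.69), COMMD6 (21.3 and 0.891), DKC1, the pseudouridine synthase dyskerin (13.6 and 0.677), SKA2 (12.4 and 2.64) and TUFT1 (11.0 and 6.07). These genes had few positions by the choice itself, and UBB shares its repeated ubiquitin units with other genes.

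Shorter-only positions stood farther from the longer part than its own positions stood from each other. Their median distance to the nearest longer-part position on the strand was 185 nt (quartiles 59 and 2425), against 100 nt from a shared and 110 nt from a longer-only position to the next one. To the nearest position of either part the medians were 160, 92 and 101 nt, in the same order. Most positions of the list stand in the longer part, so these medians could differ little from the first ones. Another longer-part position lay within 50 nt of 22.1% of shorter-only (20.7 to 23.5), 28.6% of shared (27.4 to 29.8) and 28.3% of longer-only positions (27.8 to 28.8). It was more than 10 kb away for 14.5%, 6.86% and 9.28%, in the same order. It lay within 10 nt of 145 shorter-only positions (4.30%, 3.64 to 5.04), against 5.57% of shared and 5.73% of longer-only positions. Of the 145, 12 were at the smallest distance of 4 nt. Another shorter-only position lay within 50 nt of 82 shorter-only positions (2.43%), and one lay within 50 nt of 3.09% of shared and 2.39% of longer-only positions. In all, 6 pairs of shorter-only positions were 10 nt apart or less, in FAT1, CHAMP1, ZSWIM1, EML4, TMX1 and SNUPN. Pairs this close were not counted for the other kinds. In CHAMP1 the pair was 9 nt apart with scores of 37.7 and 6.56.

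**Figure D4:**
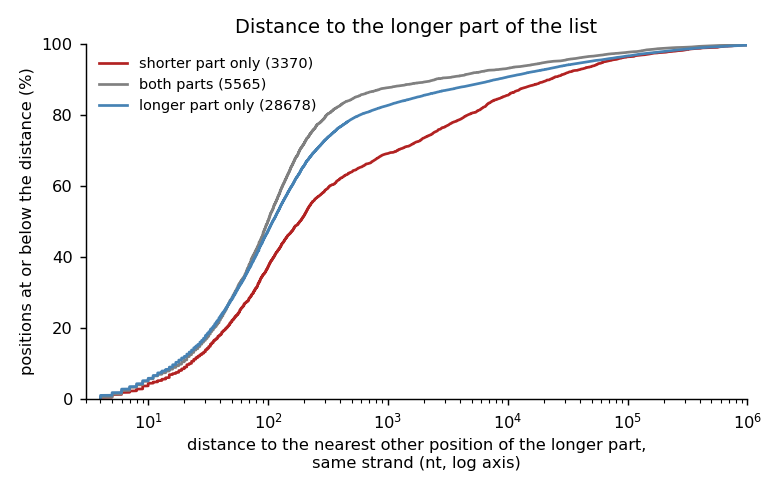
Cumulative share of positions (vertical axis, percent) by distance to the nearest other position of the longer part on the same strand (horizontal axis, nt, log scale), for positions only in the shorter part, in both parts and only in the longer part. The curve of the shorter-only positions runs below the others, reaching 69.1% at 1000 nt, against 87.7% for shared and 82.7% for longer-only positions.

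Scores come from the same calls that chose the positions, and their scale is not given, so they are described only. Shorter-only positions had a median score of 3.93 (quartiles 1.79 and 7.13, range 0.00349 to 469). Shared positions had a median of 7.00 in the shorter part (quartiles 2.96 and 14.9) and of 16.3 in the longer part, and longer-only positions one of 8.18. A score of 20 or more was found at 140 shorter-only positions (4.15%), against 17.7% of shared ones in the same part. In 1296 genes that held both, the median score of the shorter-only positions was the lower one in 883. The run mattered for the level. In the first run shorter-only positions had a median of 4.30 and shared ones 7.98, and in the second run 2.72 and 3.74. Of the second run 45.6% were shorter-only, compared with 36.0% of the first.

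**Figure D5:**
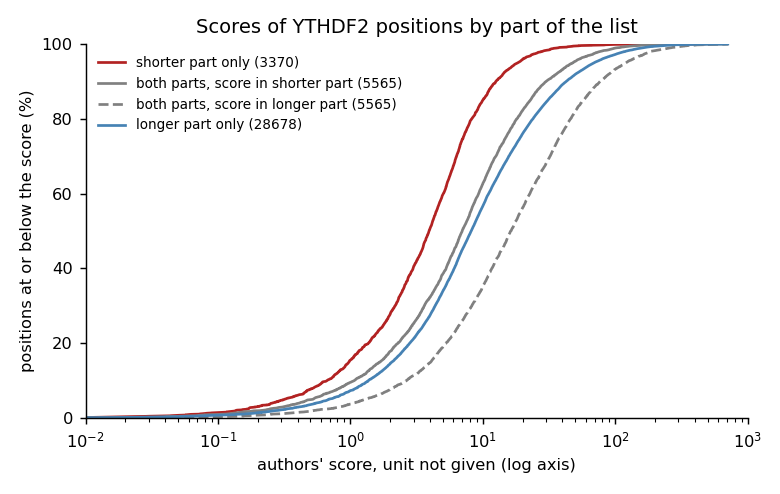
Cumulative share of positions (vertical axis, percent) by the authors' score (horizontal axis, unit not given, log scale). The shorter-only positions, with a median of 3.93, lie left of the shared positions, with medians of 7.00 by their shorter-part and 16.3 by their longer-part scores, and of the longer-only positions with 8.18.

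The highest scores were single positions that the longer part lacked although the gene had others. EXOSC6, a subunit of the RNA exosome, had a shorter-only position scored 469 at 70250829 on chromosome 16, 123 nt from a longer-part position, and a shared one scored 10.6 in the shorter part. Besides EEF2 and TUBB, high scores were found in SH3PXD2A with 121, the acetyltransferase KAT6A with 100.1, RPS15A, the seryl-tRNA synthetase SARS1 with 84.9 and RPS3. In KAT6A the other 2 shorter-only positions were scored 8.70 and 6.18. Apart from RPS3, each of these genes had longer-part positions, between 1 in RPS15A and 25 in KAT6A.

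Over chromosomes the share ran from 7.16% on chromosome 13 to 10.9% on chromosome X. The strands held 1745 (plus) and 1625 (minus) shorter-only positions. The remaining 52 that were not assigned comprised 44 in several genes of the strand or in genes of unknown strand, 3 on the opposite strand of a gene and 5 outside protein-coding genes. None lay in a miRNA hairpin of RefSeq, as did 2 shared and 5 longer-only positions.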

How the data were processed

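YTHDF2 iCLIP2 binding sites of 4 STM2457 and 4 DMSO libraries were analysed from 1 deposited list without a header. The score in each row is the authors' own, as deposited, and its scale is not stated. Per the submitters' processing notes, FastQC 0.11.8, STAR 2.7.3a, UMI-tools 1.0.0, bedtools 2.27.1 and the build GRCh38.p12 were used, with no role stated. For the site caller, filters and handling of replicates, details were not given in the sources used here, and any of them could shape which positions are listed. The labels do not say whether replicates are separate cultures.

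Positions, counted from 1, were joined to protein-coding genes of a RefSeq table (GRCh38.p14, patches of which leave main chromosomes as they are), without readthrough genes. Strands came from RefSeq gene start windows for 15735 of 19875 genes and otherwise from the majority of positions. A position was assigned when 1 gene covered it on its strand, which held for 36808. The gene assignment and distance steps were tested on 2996 simulated positions, all of which were recovered. Python 3.11.15, pandas 2.3.3 and scipy 1.17.1 were used.

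The positions and gene lists were chosen with earlier results of these data known, and the window of 250 nt after seeing the data. Genes named are the 12 with the most shorter-only positions, the 10 with the highest-scoring one, the 10 with the most and no longer-part position, the 5 with the most longer-part positions and none, and up to 3 per list; others are named after their values were seen, and some genes the rule gives are not reported here. Lists are tested nowhere. Alternatives changed windows, distances, score and gene filters and runs. No exon or coding annotation was used here, so the planned share in coding sequence was not computed.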

Additional observations from a re-analysis of the deposited data

How the results depend on the processing

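Of 34 alternatives, 21 stayed within the 95% interval of the value reported, or within 1.5 times a count, and 13 did not. Most of the 13 changed a window or a filter that sets the value by construction; for the others the cause was not tested. The median score was 4.30 in the first and 2.72 in the second run. The last 500 nt and 2000 nt held 5.12% and 20.5% of shorter-only positions and the first 500 nt and 2000 nt 4.20% and 7.82%. A longer-part position lay within 20 nt of 8.87% and within 100 nt of 37.3%. With shorter-only positions below their median score dropped and all others kept, 1412 genes had a shorter-only position. In 131 of these all positions left were of this kind. The first 250 nt held 2.41% in genes spanning at least 10 kb, and the first 100 nt 1.27%, against 0.184% of shared and 0.317% of longer-only positions. Ribosomal protein genes had 23.5% shorter-only positions when shorter-only positions scored below the median of the shorter part were dropped. The figure over all genes by the same rule was 3.48%. Shared and longer-only positions were kept whatever their score. This filter favours ribosomal genes, whose shorter-only positions had a median score of 8.84, against 3.95 over all genes. The excess in the first 250 nt over both other kinds and that in ribosomal protein genes over all genes were present under all 7 and all 3 of their alternatives, chosen after seeing the data. No paired analysis was possible because the list has no column of a single library. Sequence context rests on 29 positions, and DRACH within 10 nt was found in 72.7% of the 22 with a full window. Every position read was already the A of DRAC, so this share was largely set by the list itself.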
